A study of Homo sapiens with 6 samples.

Results

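The proteasome is the barrel-shaped protease complex that degrades ubiquitin-tagged proteins, and its genes were described here in H1048, a human small cell lung cancer line. Members were the genes whose symbol begins with PSMA to PSMG followed by a number, together with POMP, which gave 43 of the 16953 genes in the authors' deposited table. All 43 carried an adjusted p, as did 15976 genes in all. Of the 43, 42 encode a proteasome subunit, activator, inhibitor or assembly factor, and the remaining gene, PSMC3IP, encodes a meiotic recombination protein that shares only the name. PSMA8, PSMB3, PSMB8, PSMB9, PSMC4, PSME1 and PSME2 were not analysed here.

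The series holds 3 samples of wild-type H1048 cells given ISP-I (isovalerylspiramycin I, a macrolide) at a dose of 10 µM and 3 given the solvent DMSO, which stayed at or below 0.02% in the medium, both for 48 h. It asks which genes differ between these treatments. The design text names the samples of each treatment biological replicates. The authors compared libraries D to F with libraries A to C, and no label used here says which of these sets received ISP-I. Every value below is thus a difference of libraries D to F over A to C, and neither direction can be read as an effect of the drug. Values per library could not be tied to a sample and were not used, so levels, depth and the spread within each set are not shown. In bulk RNA, fewer cells that express a gene and less of its RNA per cell cannot be told apart. All 4 genes fixed as markers of the tuft cell-like lineage of this line were called lower in D to F in the authors' deposited table. AVIL was at a log2 fold change of -2.31, KIT at -1.96, POU2F3 at -1.71 and SOX9 at -1.25. The lineage markers thus moved between the same sets of libraries as the proteasome genes described below, and their part in those differences was not tested.

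In the cell, the 20S core is a stack of rings of alpha and beta subunits, and PSMB5, PSMB6 and PSMB7 carry its proteolytic sites. The 19S cap sits on the core; a ring of ATPases unfolds substrates, and non-ATPase subunits bind and remove ubiquitin. Dedicated chaperones build both particles, and the transcription factor NRF1, the product of NFE2L1, is known to raise proteasome gene expression when proteasome activity falls.

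The proteasome genes did not move as a block. At an adjusted p under 0.05 in the authors' deposited table, D to F exceeded A to C in 17 of the 43 members and fell below it in 10, and 16 were not called. Over all genes tested with the same rule, 29.7% were higher and 27.9% lower, 57.6% in all, so the members' 39.5% higher, 23.3% lower and 62.8% called lay near the share of genes in general. The counts given below for each role rest on a few genes each and were not tested; they are descriptions to be read beside these shares. The changes of the members were small. Their median log2 fold change was 0.15, against 0.05 over all genes tested, and their median absolute log2 fold change was 0.45, against 0.67. Among called genes the median absolute log2 fold change was 0.57 for the members and 0.86 for all genes, and 2 of 27 called members had changed at least 2-fold (7.41%), against 41.9% of all called genes.

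**Figure D1:**
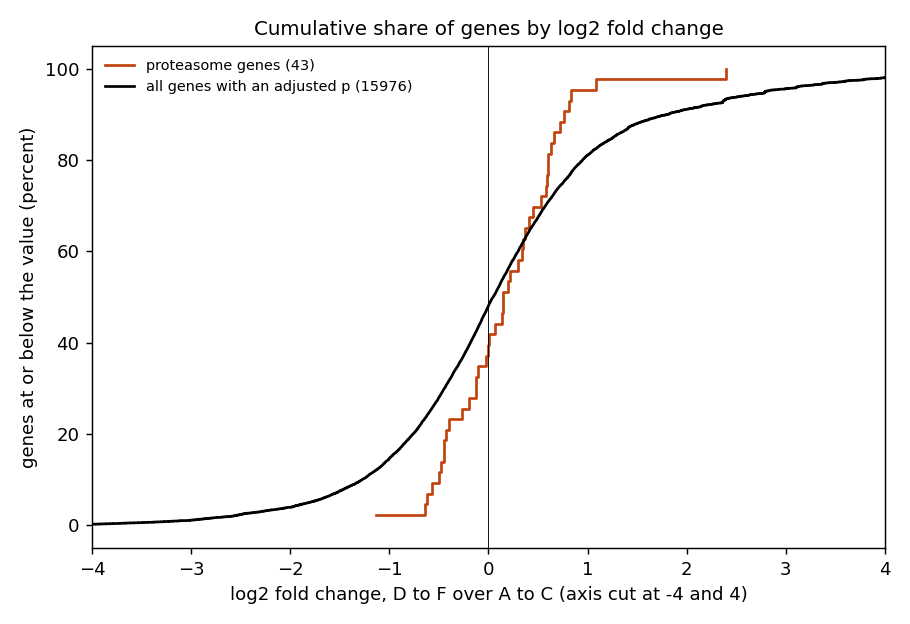
Cumulative share of genes (vertical axis, percent) at or below each log2 fold change of libraries D to F over A to C (horizontal axis, shown between -4 and 4), for the 43 proteasome genes and for all 15976 genes with an adjusted p. The proteasome curve is steeper, since its quartiles lie at -0.23 and 0.59 while those of all genes lie at -0.59 and 0.75.

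Errors are not part of the authors' deposited table. A standard error was computed here from each log2 fold change and its p as if they came from a Wald test of an unshrunken fold change, which is how DESeq2 usually tests, and each 95% interval rests on that assumption. The implied standard error had a median of 0.10 over the members and 0.15 over all genes tested. A less precise gene needs a larger fold change to be called, and the sizes compared above were not matched for precision. The part of precision in the smaller changes of the members was not tested.

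**Figure D2:**
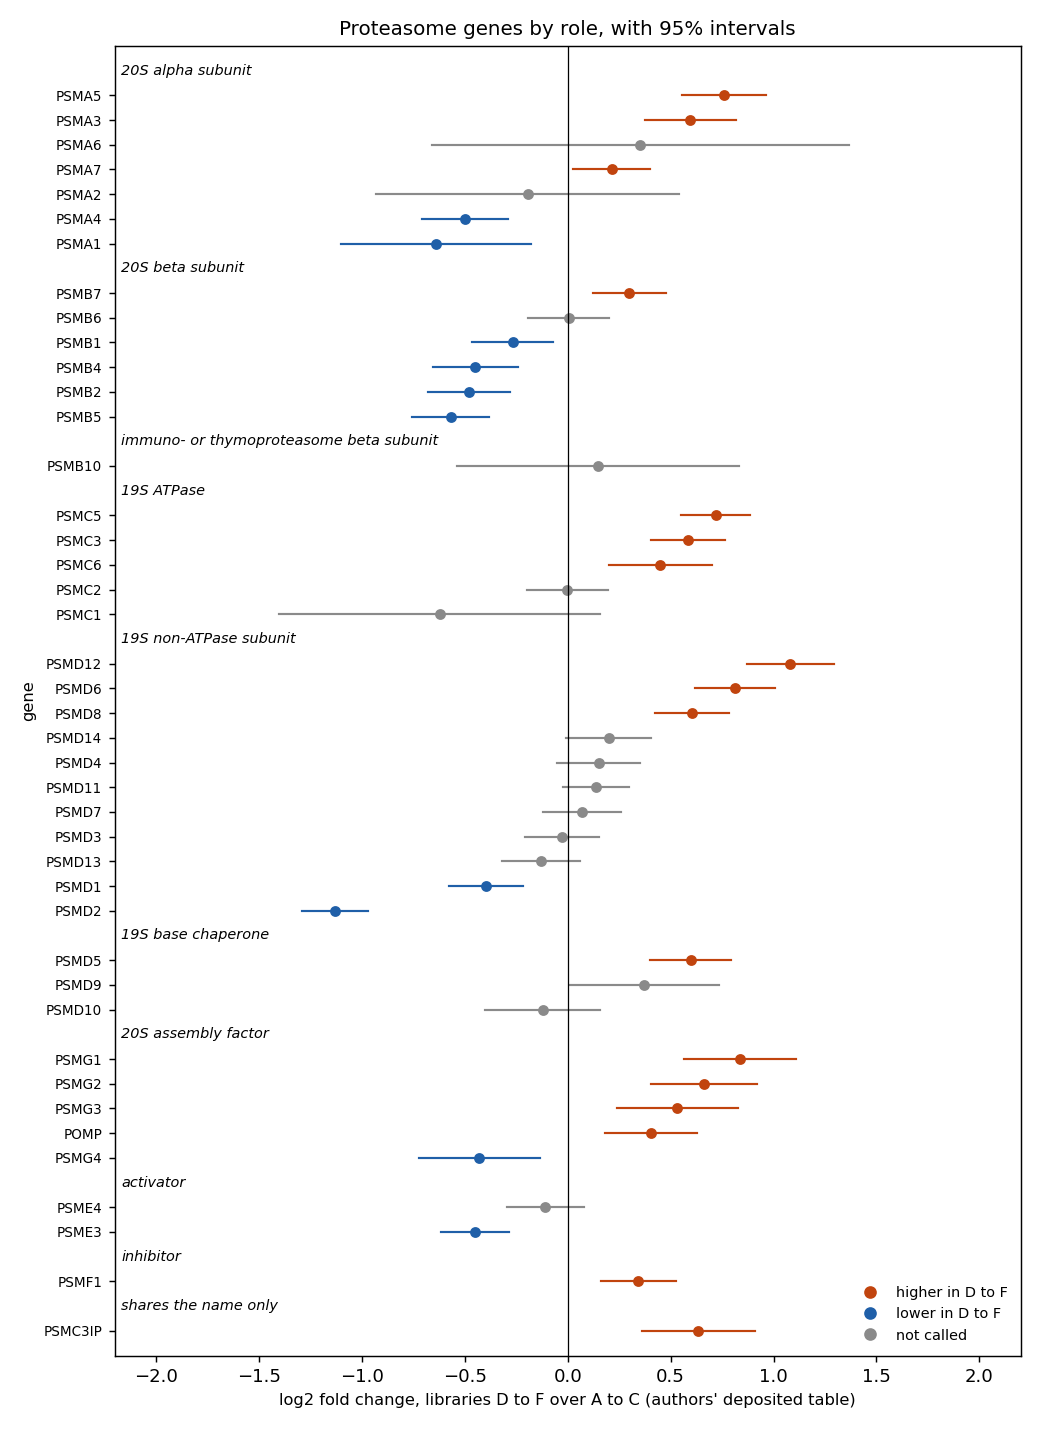
Log2 fold change of libraries D to F over A to C (horizontal axis) for 42 of the 43 members, grouped by role, with points for the authors' deposited values and lines for 95% intervals from implied standard errors. PSMB11 is not drawn, since its interval runs from -4.04 to 8.82; PSMD12 stands furthest right at 1.08 and PSMD2 furthest left at -1.13.

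The alpha subunits form the outer rings of the core and gate the entry of substrates. Beside 29.7% higher and 27.9% lower of all genes tested, 3 of 7 measured alpha subunits were higher and 2 lower. PSMA5 had the largest increase of them, with a log2 fold change of 0.76 ± 0.10 (implied standard error; the authors' deposited table gives an adjusted p = 1.95e-12). PSMA3 was higher by 0.60 ± 0.11. PSMA7 was higher by 0.21 ± 0.09, close to the threshold (adjusted p = 0.0425, from the authors' deposited table). PSMA4 fell by 0.50 ± 0.11 on the log2 scale and PSMA1 by 0.64 ± 0.24 in the authors' deposited comparison. PSMA6, at 0.35 with an interval of -0.66 to 1.37, and PSMA2, at -0.19 with an interval of -0.93 to 0.54, were not called. Thus alpha subunits, each of which takes a fixed place in the same ring, differed from each other in direction.

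The beta subunits form the inner rings with the proteolytic chamber, and 4 of 6 measured were called lower and 1 higher, beside 27.9% lower and 29.7% higher of all genes tested. PSMB5, the chymotrypsin-like subunit and the main target of bortezomib, fell most, to a log2 fold change of -0.57 (interval from -0.76 up to -0.38, with adjusted p = 8.44e-09, from the authors' deposited table). PSMB2 was at -0.48 ± 0.10, PSMB4 at -0.45 ± 0.11 and PSMB1 at -0.27 ± 0.10 in the same deposited comparison; these beta subunits have no proteolytic site of their own. PSMB7, the trypsin-like subunit, was higher at 0.30 (interval from 0.12 up to 0.48, with adjusted p = 0.00197, from the authors' deposited table). PSMB6, the caspase-like subunit, was at 0.005 with an interval of -0.19 to 0.20 (adjusted p = 0.975, from the authors' deposited table). Of the subunits that carry the proteolytic sites, PSMB5 was therefore lower, PSMB7 higher and PSMB6 uncalled, and the intervals of PSMB5 and PSMB7 lay apart.

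Immune and thymic cells can exchange the catalytic subunits for other forms. PSMB10, which takes the place of PSMB7 in the immunoproteasome, was at 0.15 with an interval of -0.54 to 0.83 and an adjusted p of 0.739 in the authors' deposited table. That interval holds the value of PSMB7 as well as 0. PSMB11, the thymus-specific form, was listed at 2.39, but its implied standard error of 3.28 exceeds that of 99.7% of all genes tested, and its adjusted p was 0.552 in the authors' deposited table. A direction cannot be read for either gene.

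Of 5 measured ATPases of the 19S cap, 3 were higher and 0 lower by the authors' DESeq2 calls. Over all genes tested, 29.7% were higher and 27.9% lower. At an unadjusted p under 0.05, 0 ATPases were lower as well, and the share of all genes at that rule was not computed. PSMC5 led the ATPases at 0.72 ± 0.09 (adjusted p = 2.20e-16, from the authors' deposited table), with PSMC3 at 0.58 ± 0.09 and PSMC6 at 0.45 ± 0.13. PSMC2 was at -0.001 with an interval of -0.20 to 0.19. PSMC1 was listed at -0.62 but not called (interval from -1.40 up to 0.16, with adjusted p = 0.177, from the authors' deposited table), so the ring cannot be said to have moved together.

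The non-ATPase subunits of the cap held the largest called changes of the members in both directions. PSMD12, a structural subunit of the lid, was 2.12-fold higher in libraries D to F (log2 fold change 1.08 ± 0.11; chromosome 17, 67337916 to 67366627, minus strand, GRCh38; adjusted p = 8.43e-23, from the authors' deposited table). PSMD2, the scaffold of the base that docks shuttle receptors, was 2.19-fold lower (log2 fold change -1.13 ± 0.08; chromosome 3, 184298709 to 184309054, plus strand; the authors' deposited adjusted p = 4.72e-42). These were also the only members in the authors' smaller table, whose rule is an unadjusted p under 0.05 and at least a 2-fold change. Over the whole table, that rule took 13.5% of all genes tested as higher and 11.7% as lower, and among the members it took 1 in each direction.

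Further lid subunits were higher, PSMD6 at 0.81 ± 0.10 (adjusted p = 1.08e-15, from the authors' deposited table) and PSMD8 at 0.60 ± 0.09. PSMD1, the other large scaffold of the base, was lower at -0.40 ± 0.09 (adjusted p = 5.24e-05, from the authors' deposited table), and its interval lay apart from that of PSMD2. The remaining 6 of the 11 non-ATPase subunits were not called and had narrow intervals. They were the ubiquitin receptor PSMD4 (0.15), the deubiquitinase PSMD14 (0.20, interval -0.007 to 0.40), its partner PSMD7 (0.07), and the structural subunits PSMD11 (0.14), PSMD3 (-0.03) and PSMD13 (-0.13), all in the authors' deposited table. Under this name pattern, the called lid subunits were thus higher and both called base scaffolds lower. The split does not extend to SEM1, a lid subunit outside the pattern, which was lower at -0.68, and it was not tested.

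The core assembly factors comprise 5 members, all of them called, 4 higher and 1 lower, beside 57.6% called and 29.7% higher of all genes tested. POMP, which guides the beta ring onto the alpha ring and is degraded by the finished core, was at 0.41 ± 0.11 (adjusted p = 0.000912, from the authors' deposited table). PSMG1 and PSMG2, partners in a dimer that starts the alpha ring, were both higher, at 0.84 ± 0.14 and 0.66 ± 0.13, with intervals that overlapped. PSMG3 and PSMG4 also form a dimer, and they were called in opposite directions: PSMG3 was at 0.53 ± 0.15 and PSMG4 at -0.43 ± 0.15 in the authors' deposited comparison, with intervals apart.

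The chaperones of the base bind single ATPases before the cap is complete. PSMD5 was higher at 0.60 ± 0.10 (adjusted p = 1.03e-08, from the authors' deposited table). PSMD9 was at 0.37 (unadjusted p = 0.0445, adjusted p = 0.0739) and PSMD10, also called gankyrin, at -0.12 with an interval of -0.40 to 0.16, both uncalled in that table.

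Alternative caps and the inhibitor were measured in 3 genes. PSME3, the nuclear activator PA28 gamma, was lower at -0.45 ± 0.08 (adjusted p = 2.75e-07, from the authors' deposited table). PSME4, which encodes the activator PA200, was at -0.11 with an interval of -0.29 to 0.08. PSMF1, which encodes the proteasome-binding inhibitor PI31, was higher at 0.34 ± 0.09 (adjusted p = 0.000472, from the authors' deposited table). PSMC3IP, no part of the complex, was higher at 0.63 ± 0.14.

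Stricter rules left fewer calls. At an adjusted p under 0.01, 16 members were higher and 8 lower, against 25.5% and 24.2% of all genes tested in the authors' deposited table. With a Bonferroni adjustment computed here from the deposited p-values, 10 members were higher and 5 lower, against 16.3% and 15.8% of all genes.

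The members also differed in precision. Of the 43, 37 had an implied standard error of at most 0.2, and 6 had more: PSMA1, PSMA2, PSMA6, PSMB10, PSMC1 and PSMB11. In GENCODE release 29 (GRCh38), 5 members overlap another protein-coding gene on the same strand, namely PSMA1 (0.24), PSMA2 (0.38), PSMA6 (0.52), PSMB10 (0.35) and PSMD9 (0.18), with the implied standard error in parentheses. The partners of PSMA2, PSMA6 and PSMD9 cover 99.7%, 99.95% and 99.7% of the member. The median implied standard error was 0.35 in these 5 members and 0.10 in the other 38. Over all genes tested that could be placed, it was 0.23 for the 1768 with such an overlap and 0.15 for the 14165 without. PSMC1 has no such overlap, but 13 pseudogenes bear its name, the most of any member, while PSMA6 has 4 and PSMA2 has 3. PSMD10 also has 3, with an implied standard error of 0.14. The median was 0.11 in the 10 members with a named pseudogene and 0.10 in the 33 without. PSMB11, the least precise member, has neither an overlap nor a named pseudogene. The counting of reads shared between such copies is among the details not given in the sources used here, so the values of these genes are uncertain; the part of the overlaps and pseudogenes in the errors was not tested.

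**Figure D3:**
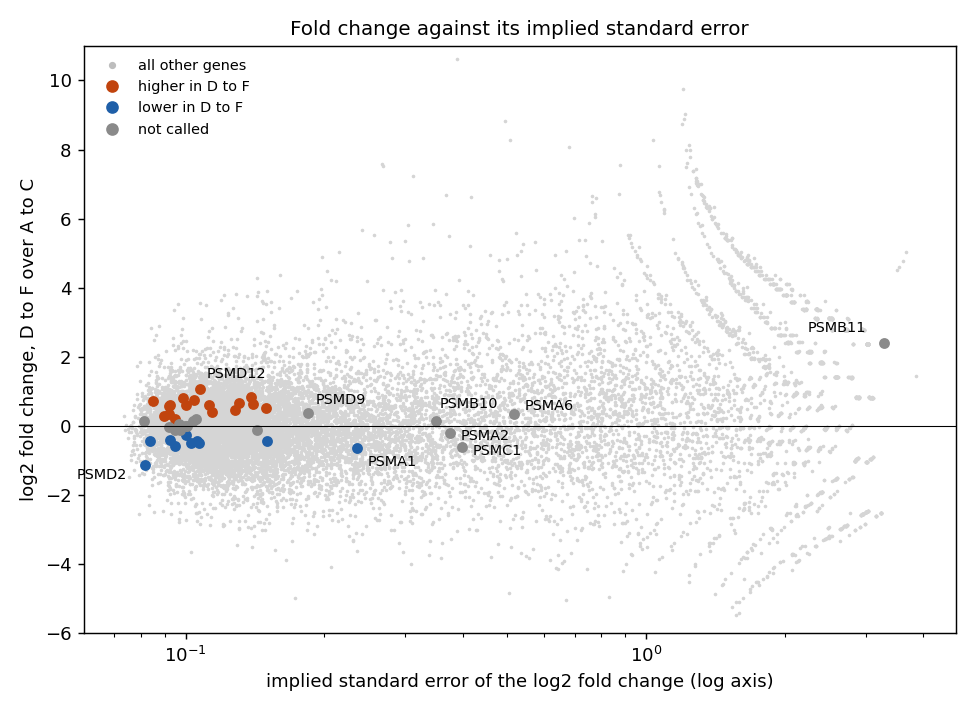
Log2 fold change of libraries D to F over A to C (vertical axis) against the implied standard error (horizontal log axis) for members, coloured by call, and for all other genes with a p above 0 (grey dots). Most members cluster at an implied standard error near 0.10, while PSMA1, PSMA2, PSMA6, PSMB10 and PSMC1 lie between 0.24 and 0.52 and PSMB11 at 3.28.

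By position, chromosome 17 carries 7 members, of which 3 were higher and 1 lower, and chromosome 14 carries 6, of which 2 were higher and 1 lower. Chromosome 1 carries 4, of which 1 was higher and 2 lower. Chromosomes 2, 7 and 11 carry 3 each, with 0, 1 and 1 higher and 1, 0 and 1 lower. Both members on chromosome 6 were lower, and both on chromosome 9 and both on chromosome 20 were higher. Of the 2 members on chromosome 3, 1 was higher and 1 lower, and both of the 2 on chromosome 16 were not called. No test was made across chromosomes, and the shares of all genes called on each chromosome were not computed. Over all chromosomes, 29.7% of genes tested were higher and 27.9% lower. Members may also share reads with genes on the other strand, since strand-aware counting is another detail not given in the sources used here. PSMA3 is overlapped over 100% of its length by ARMH4, PSMC5 over 58.7% by FTSJ3, PSME3 over 46.3% by BECN1, PSMG2 over 60.5% by CEP76 and PSMG4 over 47.8% by SLC22A23, all of them protein-coding genes on the opposite strand. PSMD5 is overlapped over 66.1% by the pseudogene CUTALP, and smaller opposite-strand overlaps are present in other called members. The called directions of all these members carry that uncertainty.

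Proteasome subunits that the name pattern does not take also split. ADRM1, a ubiquitin receptor of the cap that binds PSMD1, was 1.90-fold higher (log2 fold change 0.93 ± 0.09; adjusted p = 8.72e-24, from the authors' deposited table). SEM1, a small lid subunit, was lower at -0.68 ± 0.12. ADRM1 and its docking partner PSMD1 (-0.40) were therefore called in opposite directions.

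Of 28 measured pathway genes under other names, 12 were higher and 8 lower at an adjusted p under 0.05 in the authors' deposited table, again against 29.7% higher and 27.9% lower of all genes. DDI1 was not analysed here. Proteins that associate with the particle were mostly higher, 7 of 10 with 1 lower. PITHD1 was at 1.51 ± 0.11, and TXNL1, a proteasome-bound thioredoxin-like protein, at 0.76 ± 0.10. ZFAND2A, an arsenite-inducible factor that binds the cap, was 2.60-fold higher, AKIRIN2, which takes proteasomes into the nucleus, 2.27-fold, and PAAF1, which binds ATPases during cap assembly, 2.34-fold. UCHL5, the deubiquitinase activated by ADRM1, was at 0.74 ± 0.10 and ECPAS, which tethers cap and core, at 0.43 ± 0.11. UBE3C, a proteasome-bound ubiquitin ligase, was lower at -0.27 ± 0.09, while the deubiquitinase USP14 (-0.08) and ZFAND5 (0.14) were not called in the authors' deposited table.

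Shuttle receptors, which carry ubiquitinated proteins to the particle, were 2 higher and 2 lower of 6. Over all genes tested, 29.7% were higher and 27.9% lower. DDI2 (0.57 ± 0.13) and UBQLN1 (0.27 ± 0.08) were higher, and UBQLN2 (-0.39 ± 0.10) and RAD23B (-0.18 ± 0.08) lower, in the authors' deposited comparison. UBB (-0.14) and RPS27A (0.19), which encode ubiquitin, were not called in the authors' deposited table. Both hold a ubiquitin-coding stretch, and sharing of reads between such stretches was not examined. UBA1, the main ubiquitin-activating enzyme, was 2.10-fold lower (-1.07 ± 0.08), and UBA6, the alternative one, was at 0.06.

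NFE2L1, which encodes NRF1, was 2.92-fold lower (log2 fold change -1.54 ± 0.10; adjusted p = 3.02e-53, from the authors' deposited table). NRF1 is made as a membrane protein of the endoplasmic reticulum and becomes active after it is pulled out, stripped of sugars and cut. VCP, the extracting ATPase, was lower at -0.67 ± 0.08 and its cofactor NPLOC4 at -0.53 ± 0.10, while the cofactor UFD1 was uncalled at 0.08. NGLY1, the enzyme that removes the sugars, was 2.36-fold higher (1.24 ± 0.13; adjusted p = 2.97e-20, from the authors' deposited table), and DDI2, the protease that cuts NRF1, was among the genes higher. SYVN1, a ligase that marks NRF1 for degradation, was higher at 0.85 ± 0.11 in the authors' deposited table. Within this route, the factor, VCP and NPLOC4 were lower, and NGLY1, DDI2 and SYVN1 higher.

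**Figure D4:**
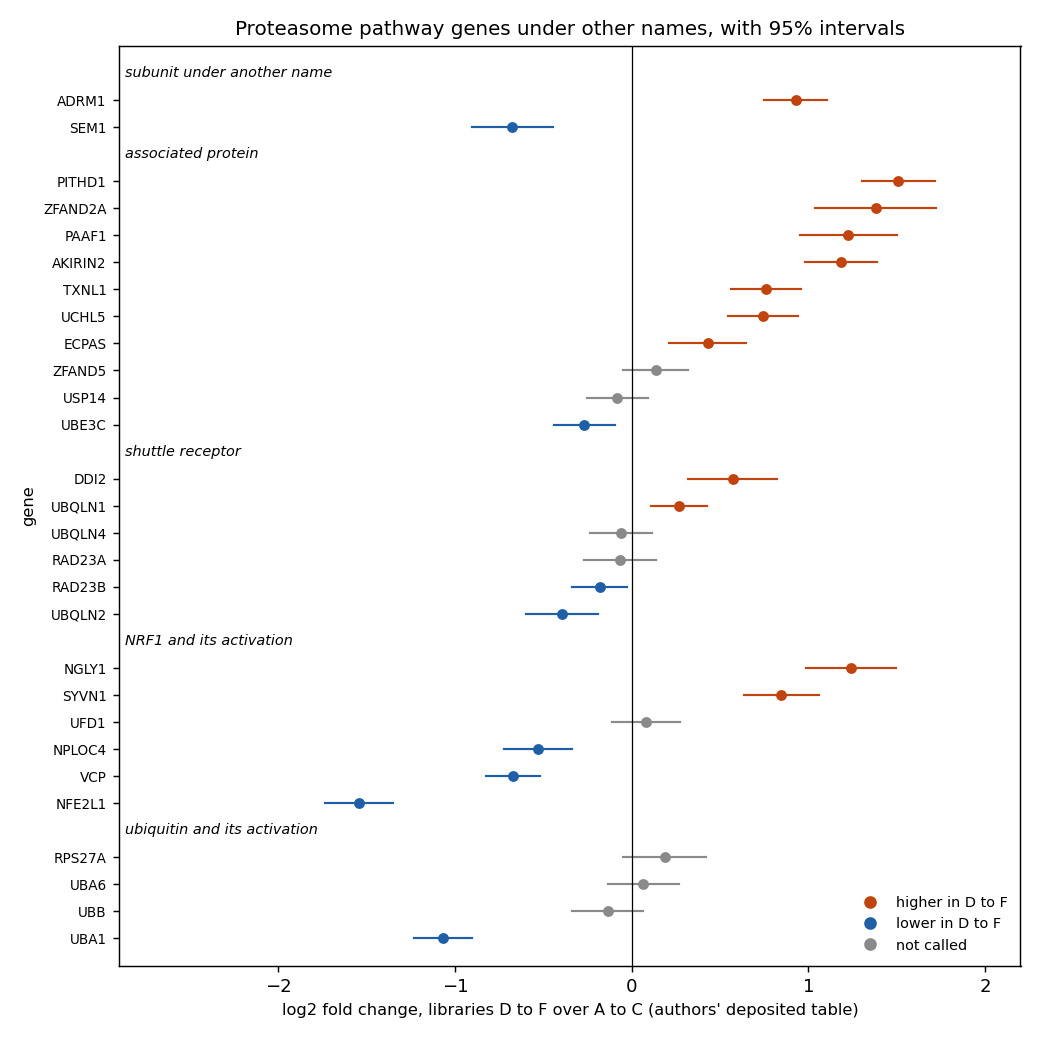
Log2 fold change of libraries D to F over A to C (horizontal axis) for the 28 measured pathway genes outside the name pattern, grouped by role, with points for the authors' deposited values and lines for 95% intervals from implied standard errors. PITHD1 stands furthest right at 1.51 and NFE2L1 furthest left at -1.54.

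NRF1 binds antioxidant response elements, and the core of this element was searched in the 250 bases before each RefSeq start (GRCh38.p14). The letters were TGACNNNGC on either strand, and 37 of the 43 members had an entry. At least 1 match was present in 9 of the 37 members (24.3%), against 15.5% of the 12309 tested genes with an entry. Both shares count a gene with a match in any of its entries. Counted by single entry, which is not comparable with these, the share was 10.9% of all 35116 promoter entries. A match was present in 5 of 14 members called higher, 1 of 9 called lower and 3 of 14 not called. The CCAAT box, searched as CCAAT on either strand, was found in 18 of the 37 members (48.6%), against 40.8% of tested genes, and in 8 of 14 members called higher, 3 of 9 called lower and 7 of 14 not called. No test of either split was made, and the shares among all genes called higher or lower were not computed. The uncalled members with an antioxidant response element core were PSMD3, PSMD9 and PSME4, and their matches are not printed. A match of letters is a description and not a binding site. The counts rest on a few genes each, and a link between the core and direction was not tested. The matches of the 6 called members, 5 higher and 1 lower, are shown as a description only. Capitals mark the core, each is written along the gene's strand, and a core on the opposite strand reads as its reverse complement.
PSMD12, higher (chr17:67366724-67366752, minus strand): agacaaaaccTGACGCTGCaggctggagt
PSMC5, higher (chr17:63827654-63827682, plus strand): gaccggatctGCTGTGTCAgcgccgccct
PSMG1, higher (chr21:39183616-39183644, minus strand): gcccagggcaTGACAGCGCgggcgggcgg
PSMG2, higher (chr18:12658689-12658717, plus strand): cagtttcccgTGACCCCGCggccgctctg
PSMD5, higher (chr9:120843038-120843066, minus strand): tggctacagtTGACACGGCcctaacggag
PSMA4, lower (chr15:78540650-78540678, plus strand): gtgggcacgaTGACTCTGCaccgcctcct

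The cores begin 165 bases before the RefSeq start in PSMD12, 183 in PSMG1, 39 in PSMG2, 134 in PSMD5, 126 in PSMA4 and 57 in PSMC5, where that of PSMC5 lies on the opposite strand. PSMA4 and PSMC5 have several RefSeq starts, and these matches precede only the start furthest downstream. PSMD2, the member with the largest decrease, had no match in the windows searched.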

How the data were processed

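RNA was sequenced from 6 samples of H1048 cells, 3 per treatment. Per the submitters' processing notes, the tools were Trimmomatic, STAR, HTSeq and DESeq2 and the build was hg38; their versions and settings, the gene annotation and strand handling were not given in the sources used here. Each row of the authors' deposited table gives a log2 fold change of libraries D to F over A to C with its p-value and adjusted p-value, per the file headers. The 977 genes with an adjusted p of exactly 1 were treated as having none. No label ties the 36 columns of values per library to samples, so they were not used and depth is not given; a count-based test, planned only if a label tied these columns to samples, was not run.

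A member was called at an adjusted p under 0.05, adjusted by the authors across all genes. Implied standard errors are the absolute log2 fold change divided by the normal quantile of the p-value, a step tested on simulated data. By rule, every member and each called pathway gene was named, with the adjusted p of the 3 members of smallest p in each direction and of the catalytic subunits; the other adjusted p-values printed and the uncalled pathway genes were picked after their values were seen. A pair of genes on the initial pathway list is not reported here. Members and lists were chosen with earlier results of these data known. The implied standard error and its limit of 0.2, the description of overlaps and pseudogenes, both promoter motifs and the pairs of members set side by side were not in the initial plan and were chosen after the values had been seen. Coordinates are from GENCODE 29 and promoter bases from RefSeq. Computing used scipy 1.17.1, numpy 2.4.6, pandas 2.3.3 and matplotlib 3.10.9 in Python 3.11.15.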

Additional observations from a re-analysis of the deposited data

How the results depend on the processing

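Under a Bonferroni adjustment the members called were 10 higher and 5 lower, in place of 17 and 10. The rule of the authors' smaller table left 1 and 1. At an adjusted p under 0.01 the alpha subunits called lower were 1 in place of 2; 3 members lost their call there (PSMA1, PSMA7 and PSMB1). Recomputing the Benjamini-Hochberg adjustment over all genes left 17 members called higher and 10 lower. It added only 977 genes to 15976, so it hardly tests the calls. By the authors' DESeq2 adjustment, the called member nearest the threshold was PSMA7 (adjusted p = 0.0425) and the nearest uncalled member PSMD9 (adjusted p = 0.0739). Subtracting the median log2 fold change of all genes (0.05) kept the deposited adjusted p, so it could change only a sign. That median is smaller than the size of every called change, so no call could differ. Leaving out PSMC3IP, 1 gene called higher, could shift a count by at most 1. Neither step therefore tests the calls. The uncalled PSMB6 lay at -0.04 after the subtraction, against 0.005 as deposited. The median of the members was 0.10 after that subtraction. Leaving out single libraries, other size factors and a filter on low counts were not run, since all take values per library. No paired analysis was possible because no label ties the library letters to the samples and their replicate numbers.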
